A study of Mus musculus with 16 samples.

Results

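The STAT transcription factors and the Janus kinases (JAKs) that activate them were followed in mouse bone marrow-derived macrophages (BMDMs) through 9 genes, Stat2, Stat3, Stat5a, Stat5b and Stat6 together with Jak1, Jak2, Jak3 and Tyk2. The genes were taken by symbol from deposited tables of reads over annotated 3′-UTR regions, which name 14925 genes, and each gene was read at its region of highest read number. These 9 genes have 15 distinct annotated regions, 9 of the STATs and 6 of the JAKs. Other genes of the family were not analysed here.

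The study asked which mRNAs the RNA-binding protein CPEB4 associates with in resting and LPS-activated macrophages. CPEB4 was immunoprecipitated from crosslinked lysates, and the RNA recovered (RIP) and that of the lysate (Input) were sequenced. The cells were BMDMs of the strain C57BL/6J 129, differentiated in M-CSF supplied by medium conditioned by L cells. They were wildtype (WT, titles numbered 76) or Cpeb4 knockout (Cpeb4-/-, a total knockout, titles numbered 73). What the numbers stand for is not given in the labels. Cells of each genotype were either left untreated or given LPS, the outer membrane lipid of Gram-negative bacteria, at 10 ng/ml for 9 h. Each of the 8 combinations has 1 count column for samples of 2 lanes, taken here as 1 library with the reads of both lanes summed. The column names do not show the lane. No group therefore has a replicate, and every interval given here covers counting error only. The genotype cannot be told apart from any other difference between the samples numbered 76 and 73.

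Cytokine receptors of the haematopoietin and interferon classes have no kinase domain of their own and rely on JAKs bound to their cytoplasmic tails. On ligand binding the JAKs phosphorylate each other, the receptor and then STAT proteins, which dimerise and enter the nucleus as transcription factors. In macrophages this pathway carries the type I interferon loop that follows LPS (Tyk2 and Jak1 upstream of Stat2), the anti-inflammatory IL-10 signal (Jak1 and Tyk2 upstream of Stat3), the IL-4 and IL-13 signal (Stat6) and the response to GM-CSF (Jak2 upstream of Stat5a and Stat5b).

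CPEB4 binds U-rich stretches of 3′-UTRs called cytoplasmic polyadenylation elements (CPEs), whose effect depends on their place near the polyadenylation hexamer. The regions were searched on the transcript strand of GRCm38.p6 (mm10) for the motif TTTTAT, its longer relatives TTTTAAT and then TTTTAAAT, and the variant TTTTACT, the variant TTTTCAT and the variant TTTTAAGT. The motif TTTTGT, which the study's count of CPEs also took in, was searched apart and is named where it changes a count. Stat5b held 7 CPEs in 2365 bases, Jak2 held 4 in 1232 bases, Stat5a held 3 in 1173 bases, and Stat2 and Stat3 held 2 each. Jak1, Stat6 and Tyk2 held 1 each, and Jak3, with the shortest region at 411 bases, held none. TTTTGT occurred 3 times in Stat2, Stat3 and Stat5a, 2 times in Stat5b and 1 time in Jak2. Among all regions of similar length (within 20%), 21.4% had at least as many CPEs as that of Stat5b, 21.2% as that of Jak2 and 32.0% as that of Stat5a. The last 100 bases of the region contained a CPE in 4 of the 9 genes, Jak2, Stat5a, Stat5b and Stat6, against 24.7% of the 14190 genes whose region is at least that long. With TTTTGT counted as a CPE, Stat2, which has one 18 bases from the end, joins them to make 5 of 9, against 33.9% of those genes. Stat3 has neither there, but a nested annotated region of 1895 bases, which held nearly all its reads, has TTTTGT 2 times in its last 100 bases. That window length was chosen after the values were seen.

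Those 4 sites are shown because they are the CPEs closest to the end of a member's region, with the CPE in capitals, on the transcript strand and 5′ to 3′. In Stat5b the CPE began 11 bases before the AATAAA hexamer that closes the window, in Stat5a 49 bases before it, in Stat6 the hexamer ended where the CPE began, and in Jak2 the CPE followed the last hexamer and began 14 bases from the end. The positions are chr19:29313056-29313080 (+) for Jak2, chr11:100885073-100885102 (+) for Stat5a, chr11:100780750-100780779 (-) for Stat5b and chr10:127660925-127660954 (+) for Stat6, all in annotated 3′-UTR exons.
Jak2: tttatacaagaTTTTAAATatttgg
Stat5a: cagagggatgctTTTTATattttgtacata
Stat5b: caaaattgtgtaTTTTATgttacaataaag
Stat6: ccataaaataaaTTTTATtccaaaataaca

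The corresponding ends of Tyk2 and Jak1 are shown for contrast, with the hexamer AATAAA in capitals, since each ends in a hexamer with neither a CPE nor TTTTGT in the last 100 bases. Tyk2 (chr9:21104074-21104103, -) has its only CPE, TTTTCAT, 788 bases from the end of the region, and Jak1 (chr4:101152371-101152400, -) has its only CPE, TTTTAAGT, 1062 bases from the end.
Tyk2: agatgagtgtttAATAAAagtttatgttta
Jak1: tactctttatacAATAAAcatactaaagac

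**Figure D1:**
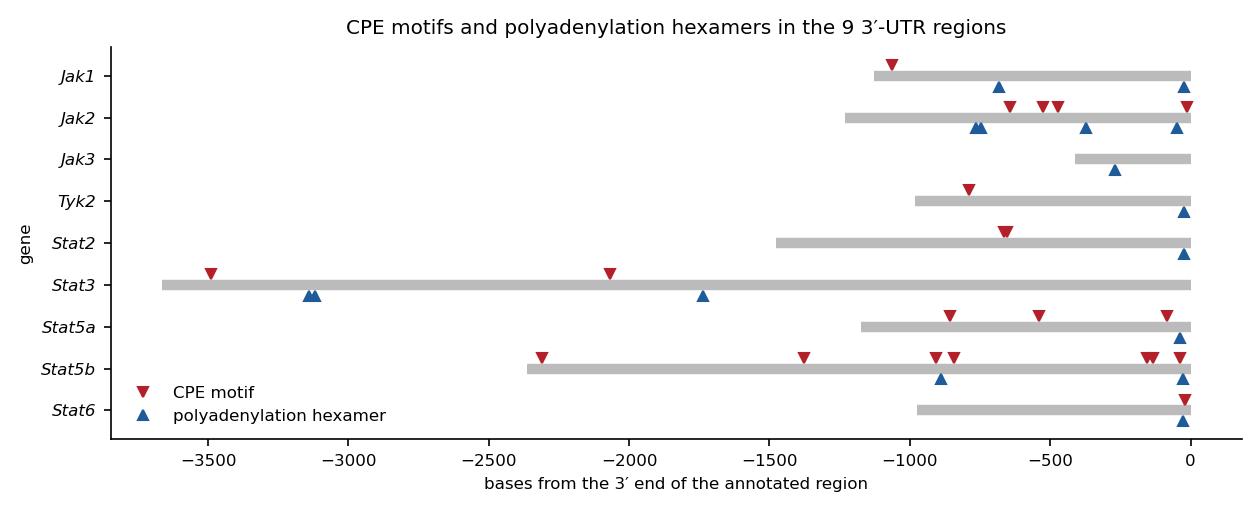
Positions of CPE motifs (red, above, without TTTTGT) and polyadenylation hexamers (AATAAA or ATTAAA, blue, below) along the 3′-UTR region used for each gene, in bases from its annotated 3′ end. Jak2, Stat5a, Stat5b and Stat6 have a CPE within the last 100 bases, and Stat3 has no motif of either kind in the distal part of its long region.

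The deposited tables also carry a predicted CPE class for each region. Stat5a and Stat5b were predicted for early strong activation, Stat6 for early weak activation and Jak2 and Stat2 for repression, with Stat5b also carrying a repression class. Jak1, Jak3, Stat3 and Tyk2 had no predicted class. A class was given to 31.8% of all genes. The pentamer ATTTA, the core of the AU-rich elements bound by tristetraprolin, occurred 4 times in Jak1, 3 times in Stat5b, 2 times in Jak2 and Stat3 and 1 time in Stat5a and Tyk2, and was found nowhere in Stat2, Stat6 and Jak3. It occurred in 75.5% of all regions of a length like that of Jak1 and in 92.9% of those like Stat5b. Base composition ran from 38.1% G and C in Jak2 to 55.0% in Jak3, around a median of 45.4% over all genes.

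Of the 3′ ends, 3 pairs overlap with a gene on the opposite strand. Stat3 (chr11:100885098-100888760, -) and Stat5a (chr11:100883997-100885169, +) are transcribed towards each other and share 72 bases, Stat6 shares 40 bases with an exon of Nab2, and Jak1 shares 4 bases with Raver2. The strand setting of the counting is not given in the sources used here, so reads in these stretches cannot be assigned to either gene. The region of Stat3 is 3663 bases long, but between 0.759% and 3.87% of its reads in any library lay outside a nested annotated region of 1895 bases.

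The counts of the 8 libraries over the 3′-UTR regions of named genes summed to 467696 to 2492300, the shallowest being the untreated knockout RIP. Regions nest and repeat (26892 distinct of 30622), so a read can count more than once in these sums, called 3′-UTR reads here. Levels are given as counts per 1000000 of them (CPM) with a Wilson 95% interval. Over the Input libraries the 8 macrophage markers summed to 2539 to 3557 CPM and no marker fell under 10 reads, while the lists of T cell, B cell, neutrophil and fibroblast markers stayed at or below 1.33 CPM (3, 3, 1 and 3 of their genes were in the tables). The 5 LPS response markers summed to 39.2 and 51.7 CPM untreated and to 1498 and 1657 CPM after LPS. Cpeb4 itself was at 130 CPM and 136 CPM in the WT Inputs and at 52.0 CPM and 52.6 CPM in the knockout Inputs (untreated and LPS), so its 3′-UTR reads fell 2.49-fold and 2.56-fold in the knockout but were not absent, and its own RIP over Input log2 ratios were 2.67 and 2.50 in WT and 2.29 and 2.79 in the knockout. Divided by library totals recovered from the authors' RPKM values, the sums of 3′-UTR reads were 46.4% to 51.1% in the Inputs. They were 48.9% and 70.1% in the WT RIPs and 27.3% and 31.8% in the knockout RIPs. Because reads in overlapping regions count more than once, these are not exact shares of library reads. Ribosomal RNA was depleted from the Input samples only.

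In untreated WT macrophages the family was led, per kilobase of 3′-UTR region, by Stat6 at 77.2 CPM per kb (95% interval 61.1 to 97.5), Stat5b at 76.0 (65.3 to 88.4) and Stat2 at 63.4. Tyk2 at 46.1, Stat3 at 43.5, Jak1 at 40.1 and Stat5a at 27.5 followed, and Jak3 at 13.1 and Jak2 at 3.50 CPM per kb were lowest. No neighbours in this order had counting intervals clear of each other, while Stat6 stood clear of Stat5a and Stat5a of Jak2. Counted over its nested region of 1895 bases, Stat3 was at 82.9 CPM per kb, which would place it first.

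After LPS the order in WT Input changed, with Stat2 first at 230 CPM per kb (213 to 249), Stat3 second at 142 (133 to 151) and then Tyk2 at 96.8 (83.7 to 112). Over the nested region Stat3 was at 271 CPM per kb, above Stat2. Stat6 stood at 78.8, Stat5b at 62.8, Stat5a at 49.9, Jak3 at 48.7, Jak2 at 46.2 and Jak1 at 40.7 CPM per kb, and from Tyk2 downwards no neighbours were clear of each other. Jak2 and Jak3, the lowest untreated, were at the level of Jak1 after LPS.

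**Figure D2:**
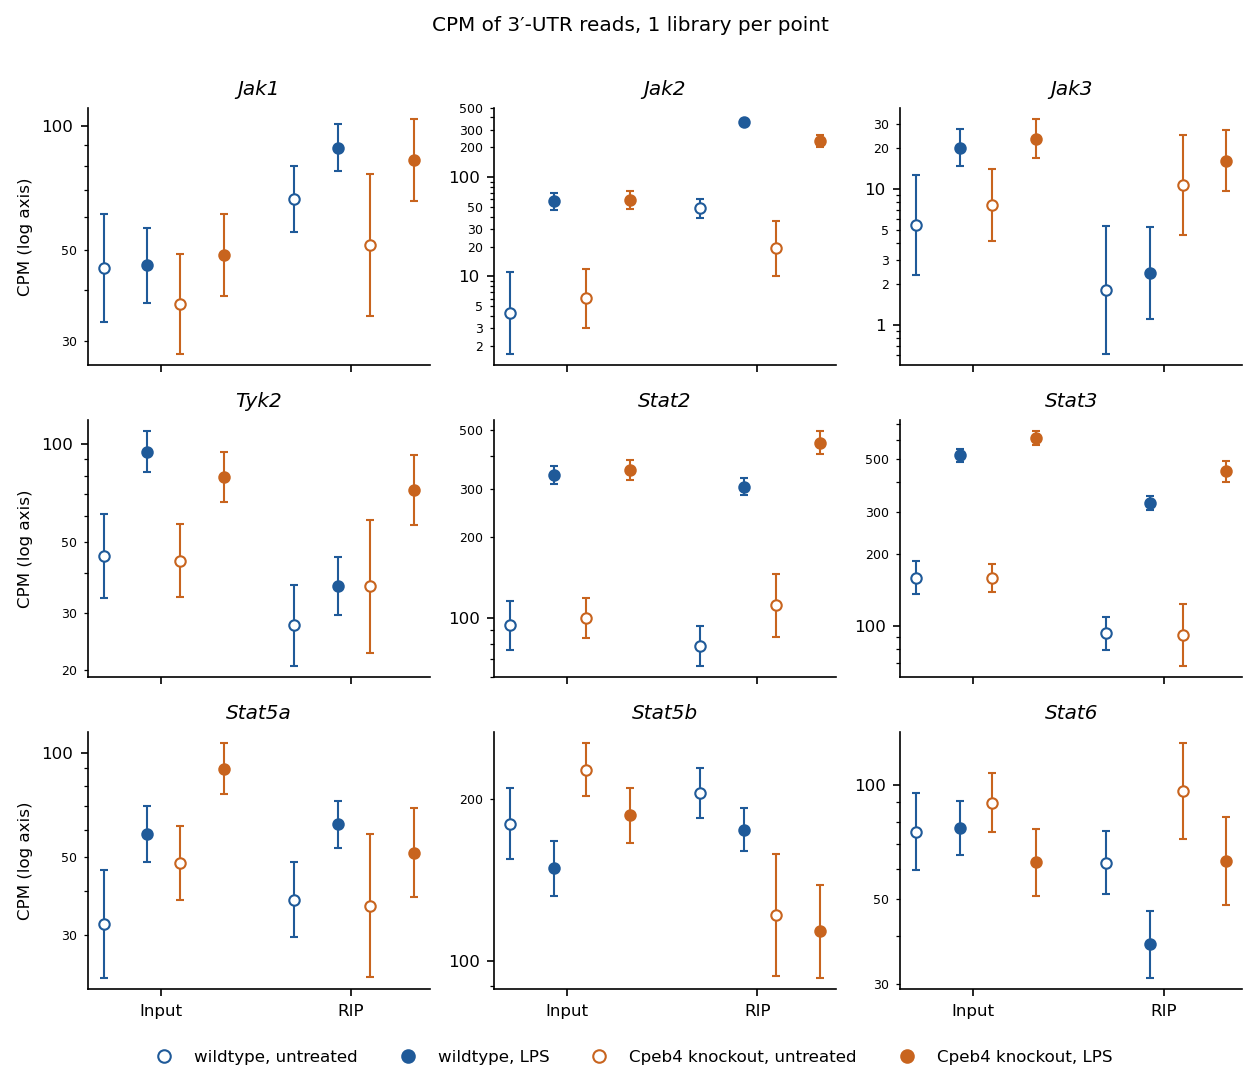
Level of each gene in each of the 8 libraries, in CPM of 3′-UTR reads on a log axis that differs between panels, with Wilson 95% intervals for counting error. The untreated Input points of Jak2 lie at 4.31 and 6.03 CPM and its WT RIP point after LPS at 358 CPM, while the points of Jak1 stay between 37.0 and 88.7 CPM.

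LPS raised 6 of the 9 genes in the Input of both genotypes. A gene is said to have risen or fallen where its log2 ratio lay beyond 0.5 in size with a 95% interval clear of 0 and the pair of libraries held at least 10 of its reads. Over all genes 17.1% rose and 23.3% fell in WT, and 18.2% rose and 26.8% fell in the knockout (with TMM factors 20.9% and 19.3%, and 23.6% and 20.4%). The median log2 change of the 9 genes was 1.04 in WT and 0.89 in the knockout, against medians of -0.08 over 8163 genes and -0.18 over 8250 genes. Library totals, TMM and median-of-ratios factors moved all Input changes up by 0.07 to 0.14 in WT and 0.14 to 0.22 in the knockout, and the 6 genes rose under each, joined in the knockout by Jak1 at 0.52 to 0.60.

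Jak2, the kinase used by the receptors for GM-CSF and IFN-γ, moved furthest. Its Input reads were at 4.31 CPM untreated and 56.9 CPM after LPS in WT, and at 6.03 CPM and 59.2 CPM in the knockout. Both LPS libraries lay above both untreated ones with intervals that did not touch. The rise was 10.7-fold in WT (95% interval of the log2 change 2.12 to 4.71) and 8.83-fold in the knockout (2.15 to 4.13), beyond 97.9% and 97.4% of all genes tested. The untreated values rest on 4 and 8 reads.

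Jak3, which pairs with the common γ chain of receptors such as that of IL-4 and is best known from lymphocytes, rose from 5.38 to 20.0 CPM in WT and from 7.54 to 23.3 CPM in the knockout. These are log2 changes of 1.67 (0.43 to 2.91) and 1.53 (0.56 to 2.50). The reads of Jak3 were few, 5 and 10 in the untreated Inputs, and up to 28 of those in an LPS library fell in an annotated region of only 15 bases next to the stop codon, and reads that also overlap coding sequence cannot be told apart there.

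Tyk2, a kinase of the type I interferon, IL-10 and IL-12 receptors, went from 45.2 to 94.9 CPM in WT and from 43.7 to 79.2 CPM in the knockout, log2 changes of 1.04 (0.56 to 1.52) and 0.84 (0.39 to 1.29). Jak1, shared by most of these receptors, did not pass in either genotype on 3′-UTR reads. Its Input levels were 45.2 and 45.9 CPM in WT and 37.0 and 48.6 CPM in the knockout, with counting intervals that overlapped in every pair, and the log2 changes were 0.00 (-0.52 to 0.53) and 0.39 (-0.13 to 0.90).

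Among the STATs, Stat2 and Stat3 showed the clearest changes. Stat2, the interferon-specific STAT that joins IRF9 in the complex ISGF3, was at 93.6 and 340 CPM in WT and at 99.6 and 355 CPM in the knockout. The rise was near 3.6-fold in both, with log2 changes of 1.85 (1.52 to 2.17) and 1.83 (1.55 to 2.10). Stat3, which transmits IL-6 and IL-10, was at 159 and 520 CPM in WT and at 158 and 614 CPM in the knockout. Its rise was 3.25-fold and 3.86-fold, with log2 changes of 1.70 (1.45 to 1.95) and 1.95 (1.73 to 2.16).

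The closely related Stat5a and Stat5b, which lie in the same stretch of chromosome 11 and transmit GM-CSF, did not move alike. Stat5a went from 32.3 to 58.5 CPM in WT and from 48.3 to 89.9 CPM in the knockout, log2 changes of 0.82 (0.25 to 1.40) and 0.88 (0.46 to 1.31). Stat5b went from 180 to 149 CPM in WT and from 226 to 186 CPM in the knockout, and its log2 changes of -0.28 (-0.55 to -0.00) and -0.28 (-0.51 to -0.04) did not reach 0.5 in size. The intervals of the 2 paralogues did not overlap in either genotype.

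Stat6, the STAT of alternative macrophage activation, was at 75.3 and 77.0 CPM in WT and at 89.8 and 62.6 CPM in the knockout. It fell in the knockout, where the log2 change was -0.52 (-0.91 to -0.13) but lay inside the limit, from -0.38 to -0.30, under each of the other 3 scalings, and in WT it was 0.02 (-0.39 to 0.43). The difference between the genotypes was 0.54 with an interval of -0.03 to 1.10, which includes 0. None of the 7 members with enough reads in all 4 Inputs differed between the genotypes in its LPS change, where 6.31% of 5468 genes had a larger and 4.21% a smaller change in WT. For Jak2 and Jak3 the reads were too few for this comparison.

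The ISRE core GAAANNGAAA, the element bound by ISGF3, was found on either strand in the promoter of 1 member, Stat2, among 11 promoters of the 9 genes (RefSeq, GRCm38.p6, 250 bases before to 50 after the start), and in 3.44% of all 32851 promoters. The site is shown because Stat2 rose with LPS. It begins at position -222 from the start, at chr10:128270266-128270295 (+), with the core in capitals as read on the opposite strand. The GAS core TTCNNNGAA, the element of STAT dimers, was in none of the 11 promoters and in 8.3% of all.
Stat2: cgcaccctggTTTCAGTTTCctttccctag

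**Figure D3:**
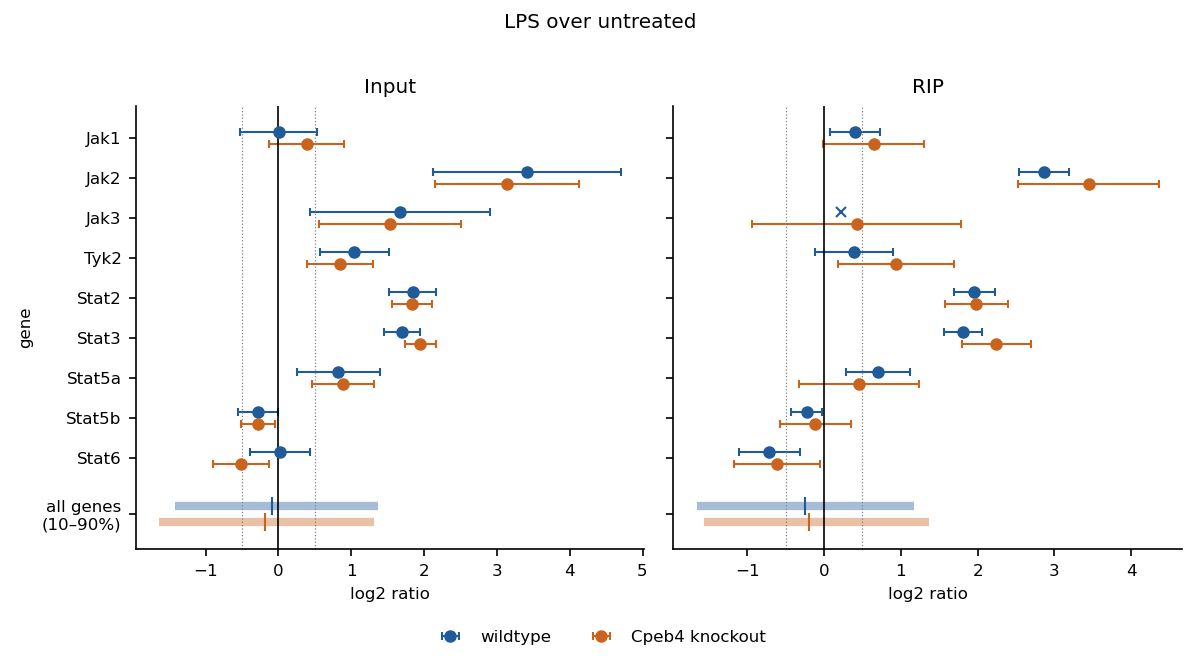
Log2 ratio of LPS over untreated libraries in Input (left) and RIP (right), for WT (blue) and Cpeb4 knockout (orange), with 95% counting intervals. Crosses mark values with too few reads, dotted lines a log2 ratio of 0.5 in size, and the bars at the bottom the range from the 10th to the 90th percentile of all genes with their median. In Input, Jak2, Jak3, Tyk2, Stat2, Stat3 and Stat5a lie to the right of the limit in both genotypes.

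The RIP libraries followed the Inputs for Stat2, Stat3 and Jak2. In the WT RIP, 4 members rose and 1 fell with LPS (16.7% of all genes rose and 29.7% fell), and in the knockout RIP 4 rose and 1 fell (15.5% and 24.4%). Scaled to library totals, 32.9% of all genes rose and 14.2% fell in the WT RIP and 20.3% and 18.0% in the knockout RIP. Stat2 rose by log2 1.96 and 1.99, Stat3 by 1.81 and 2.24 and Jak2 by 2.86 and 3.45, in WT and knockout. Stat5a rose past the limit in the WT RIP (0.70, 0.28 to 1.12) with 0.46 (-0.33 to 1.24) in the knockout, and Tyk2 in the knockout RIP (0.93, 0.18 to 1.69) with 0.39 (-0.12 to 0.89) in WT. Under library totals, TMM and median-of-ratios factors, Tyk2 rose in the WT RIP too, at 0.91, 0.67 and 0.63, and so did Jak1, at 0.93, 0.69 and 0.65, which makes 6 members that rose and 0 that fell there. Jak1 rose in the knockout RIP as well under these 3, at 0.86 to 0.90, and Stat5a did not. Stat6 fell in both RIPs, by log2 -0.71 (-1.11 to -0.31) in WT and -0.61 (-1.18 to -0.05) in the knockout, and lay between -0.47 and -0.19, inside the limit, under the other 3 scalings.

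Recovery with the CPEB4 antibody, measured as RIP over Input, spanned log2 ratios from -2.87 to 3.19 among the kinases and from -1.01 to 0.33 among the STATs in the pairs with enough reads. In WT, 2 members were higher in RIP in each condition, Jak1 and Jak2 both times, and 2 members (Stat3 and Tyk2) were lower untreated and 4 (Stat3, Stat6, Jak3 and Tyk2) after LPS. Over all genes the shares were 27.3% higher and 27.3% lower untreated and 29.2% and 32.7% after LPS, so the members' counts were near the background. In the knockout, where the antigen is removed, Jak2 was higher untreated and Jak1 and Jak2 after LPS. Stat3 and Stat5b were lower there untreated, and Stat5a and Stat5b after LPS, with 20.8% of all genes higher and 14.6% lower untreated and 22.1% and 18.0% after LPS. Scaled to library totals, all RIP over Input ratios move by 0.06 and 0.51 in WT and by -0.77 and -0.68 in the knockout (untreated and LPS), and the shares of higher and lower genes become 42.7% and 20.8% in WT after LPS, 6.8% and 42.3% in the untreated knockout and 7.31% and 44.5% in the knockout after LPS.

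Jak2 had the highest RIP over Input ratio of the family in all 4 pairs. Its RIP level was 48.6 CPM untreated and 358 CPM after LPS in WT, and 19.2 CPM and 232 CPM in the knockout, against Input levels of 4.31, 56.9, 6.03 and 59.2 CPM in the same order. The log2 ratios were 3.19 (1.89 to 4.50) and 2.64 (2.35 to 2.93) in WT, at the 98.0th and 97.0th percentile of all genes, and 1.66 (0.36 to 2.95) and 1.96 (1.60 to 2.32) in the knockout. Scaled to 3′-UTR reads, the ratio thus passed the limit in the knockout too. The untreated knockout value rests on 9 and 8 reads, and on library totals it was 0.89 with an interval from -0.41 to 2.19 and did not pass, while after LPS it was 1.28 (0.92 to 1.63) and did. In RIP after LPS Jak2 was the highest member per kilobase in WT, at 291 CPM per kb against 208 for Stat2, and second to Stat2 in the knockout, at 188 against 303 CPM per kb.

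Jak1 was recovered in the same direction at a smaller ratio. Its RIP levels of 66.6 and 88.7 CPM in WT gave log2 ratios of 0.54 (0.03 to 1.05) and 0.94 (0.59 to 1.30), and those of 51.3 and 82.6 CPM in the knockout gave 0.50 (-0.19 to 1.20) and 0.77 (0.30 to 1.23). The 2 genotypes lay within each other's intervals under this scaling. On library totals they lay apart after LPS, at 1.46 (1.10 to 1.81) in WT and 0.08 (-0.38 to 0.55) in the knockout.

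Tyk2 and Jak3 had the opposite position. Tyk2 was at 27.6 and 36.5 CPM in the WT RIPs, with log2 ratios of -0.71 (-1.31 to -0.12) and -1.37 (-1.73 to -1.01), and at 36.3 and 72.3 CPM in the knockout RIPs, with -0.21 (-0.97 to 0.55) and -0.12 (-0.56 to 0.32). Jak3 had 3 and 6 reads in the WT RIPs and 5 and 14 in the shallower knockout RIPs. Its log2 ratio in WT after LPS was -2.87 (-4.03 to -1.71), the 1.55th percentile of all genes, and in the knockout after LPS it was -0.48 (-1.35 to 0.39). On library totals Tyk2 was lower in both genotypes, at -0.65 and -0.86 in WT and -0.98 and -0.81 in the knockout. Jak3 after LPS was lower in both there too, at -2.36 in WT and -1.16 in the knockout, with overlapping intervals.

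No STAT passed the limit upwards in any RIP over Input pair, though on library totals Stat5a and Stat5b did in WT after LPS, at 0.60 and 0.75. Stat3 was below it in 3 of 4 pairs, with log2 ratios of -0.78 (-1.10 to -0.45) and -0.67 (-0.80 to -0.53) in WT and -0.76 (-1.23 to -0.29) and -0.46 (-0.64 to -0.29) in the knockout. In WT after LPS Stat3 lay inside the limit on library totals, at -0.15, and with TMM, at -0.45. In the knockout after LPS it was lower on library totals, at -1.15, and with TMM, at -0.52. Stat2 stayed inside the limit, with -0.26 and -0.15 in WT and 0.18 and 0.33 in the knockout. Stat5b was at 205 and 175 CPM in the WT RIPs and at 122 and 114 CPM in the knockout RIPs, and its log2 ratios were 0.18 (-0.08 to 0.45) and 0.24 (0.02 to 0.45) in WT but -0.87 (-1.28 to -0.47) and -0.70 (-1.03 to -0.38) in the knockout. Both knockout values lay below both WT values with no overlap of the intervals. Stat6 showed the reverse order after LPS, with -1.01 (-1.38 to -0.64) in WT and 0.02 (-0.45 to 0.50) in the knockout. On library totals that order of Stat6 turned, with -0.49 in WT and -0.66 in the knockout and overlapping intervals, and Stat2 after LPS was at 0.37 in WT and -0.35 in the knockout.

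**Figure D4:**
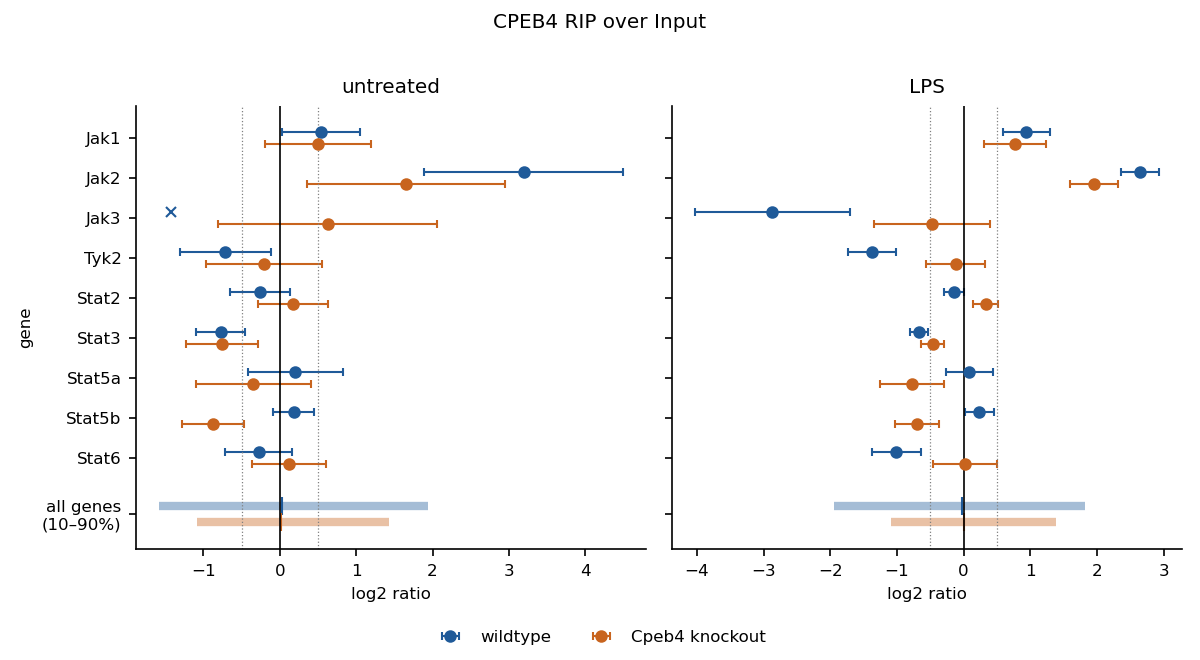
Log2 ratio of CPEB4 RIP over Input, untreated (left) and after LPS (right), in WT (blue) and Cpeb4 knockout (orange), with 95% counting intervals. The cross marks Jak3 in untreated WT, with too few reads, dotted lines a log2 ratio of 0.5 in size, and the bottom bars the range from the 10th to the 90th percentile of all genes. Jak2 lies to the right in all 4 pairs. The intervals of the genotypes lie apart for Stat5b in both conditions and after LPS for 7 members, all but Jak1 and Stat3. On library totals after LPS those of Tyk2, Jak3 and Stat6 overlap, Stat2 has the opposite order, and those of Jak1 and Stat3 lie apart, with WT higher.

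The direct comparison of WT with knockout RIP, scaled to 3′-UTR reads, placed members on both sides. The study also compared WT with knockout RIP to call CPEB4 association, but by RPKM fold changes with p-values or peak scores. Those values were not used here. Jak2 and Stat5b were higher in the WT RIP in both conditions. Stat2 and Stat6 were lower in both, joined after LPS by Jak3 and Tyk2. Over all genes 12.3% were higher and 18.1% lower in WT untreated, and 16.4% and 21.7% after LPS. On library totals the shares become 42.7% and 1.9%, and 60.0% and 2.0%. No member was lower in WT untreated on that scaling, and after LPS only Jak3 was.

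For Jak2 the log2 ratio of WT over knockout RIP was 1.20 (0.26 to 2.15) untreated, on 81 and 9 reads, and 0.62 (0.40 to 0.84) after LPS, on 892 and 202 reads. For Stat5b it was 0.73 (0.33 to 1.13) and 0.61 (0.30 to 0.93), on 341 and 57 and on 437 and 99 reads. For Stat2 it was -0.52 (-0.98 to -0.06) and -0.54 (-0.72 to -0.37), and for Stat6 -0.64 (-1.14 to -0.14) and -0.74 (-1.21 to -0.26). After LPS Tyk2 was at -0.99 (-1.45 to -0.53) and Jak3 at -2.62 (-3.91 to -1.32), the latter below all but 0.746% of the genes tested. Jak1, Stat3 and Stat5a did not pass in either condition, with log2 ratios of 0.33 and 0.09, -0.01 and -0.44, and -0.00 and 0.25. On library totals these genes were higher in WT in both conditions, at 1.17 and 1.23, 0.84 and 0.70, and 0.84 and 1.39.

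These directions depend on how the libraries are scaled. Scaled to the library totals instead of the 3′-UTR reads, every WT over knockout RIP ratio moves up by 0.84 on the log2 scale untreated and by 1.14 after LPS, so that Stat2 and Stat6 are at 0.33 and 0.20 untreated and Stat2, Stat6 and Tyk2 at 0.60, 0.40 and 0.15 after LPS, all above 0. Jak2 and Stat5b keep their direction there, and the order of the genes is the same under either scaling. With TMM factors the ratios move up by 0.19 and 0.22, which leaves Stat2 at -0.32 in both conditions and Stat6 at -0.45 untreated, inside the limit.

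Input levels of WT and knockout were close. None of the 9 members differed untreated, where 3.25% of all genes were higher and 4.83% lower in WT, and 1 differed after LPS, where 5.19% were higher and 4.09% lower. That gene was Stat5a, lower in WT Input by log2 -0.62 (-0.98 to -0.26), and it was at -0.56 (-1.17 to 0.06) untreated. Stat5b was at -0.33 in both conditions (-0.60 to -0.06 and -0.56 to -0.09), below the limit in size.

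Corrected for Input, that is, with the WT over knockout ratio of the Inputs taken from that of the RIPs, Stat5b was higher in WT in both conditions. Its log2 difference was 1.06 (0.57 to 1.54) untreated, at the 90.2nd percentile, and 0.94 (0.55 to 1.34) after LPS, at the 88.5th. It was the only member past the limit untreated, where 18.7% of all genes were higher and 20.8% lower. On library totals Stat5a at 1.38, Jak1 at 0.87 (0.01 to 1.72) and Stat3 at 0.81 were also higher in WT untreated. After LPS, Stat5a at 0.86 (0.27 to 1.46) and Jak2 at 0.68 (0.22 to 1.14) were higher too, and Tyk2 at -1.25 (-1.82 to -0.68) and Stat6 at -1.03 (-1.64 to -0.43) were lower, against 17.5% higher and 24.6% lower over all genes (on library totals 49.9% and 3.22% untreated, and 63.9% and 1.66% after LPS). The difference of Stat5a rests in part on its lower WT Input, since its RIP ratio alone was 0.25.

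Set beside their motifs, the members with a predicted class lay on both sides after LPS, with Stat5b, Stat5a and Jak2 higher, Stat6 lower and Stat2 at -0.48 (-0.72 to -0.24). The same 5 genes hold a CPE or TTTTGT in the last 100 bases, Stat2 by TTTTGT alone. Of the 4 without either, Tyk2 was lower, Jak1 was at 0.18 (-0.41 to 0.76), Stat3 at -0.20 (-0.42 to 0.02), and Jak3 had too few reads for the comparison. Stat3 is placed here by its full region. Its nested region of 1895 bases, with nearly all its reads, holds TTTTGT in the last 100 bases. With this window chosen after the values were seen and so few genes, nothing is read from the grouping. Untreated, Jak2 was at 1.54 with an interval from -0.30 to 3.38 and too few reads, and Stat5a at 0.55 (-0.42 to 1.53). Under scaling to library totals the corrected differences after LPS move up by 1.20, which puts Stat6 at 0.17 and Tyk2 at -0.05 and leaves Stat5b, Stat5a and Jak2 at 2.14, 2.06 and 1.88.

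**Figure D5:**
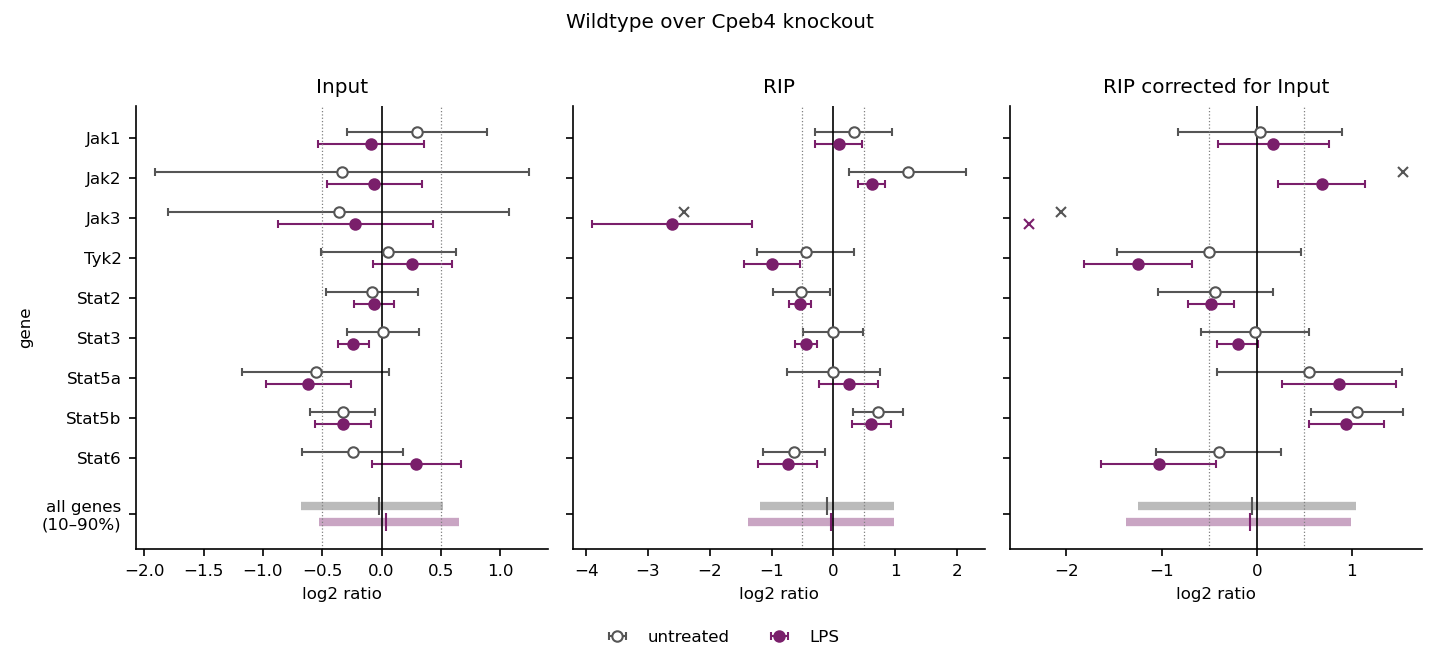
Log2 ratio of WT over Cpeb4 knockout in Input, in RIP and in RIP corrected for Input, untreated (open) and after LPS (filled), scaled to 3′-UTR reads, with 95% counting intervals. Crosses mark values with too few reads, dotted lines a log2 ratio of 0.5 in size, and the bottom bars the range from the 10th to the 90th percentile of all genes. Stat5b lies to the right of the limit in RIP and corrected RIP in both conditions, and Tyk2 and Stat6 lie to the left after LPS.

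The genes around the family were taken from lists of receptors, ligands, inhibitors and targets. Their counts in Input stand beside 17.1% of all genes that rose and 23.3% that fell with LPS in WT, and 18.2% and 26.8% in the knockout. Of 19 receptor genes with enough reads, 10 rose and 5 fell in WT Input, and 10 rose and 6 fell in the knockout. Il15ra, the IL-15 receptor α chain, had 0 reads untreated and 16 after LPS in WT. Counted from an assumed 3 untreated reads that is 2.61-fold higher, and the log2 change had an interval of 0.15 to 5.97. Such folds leave out counting error in the LPS reads. Lifr, the receptor of leukaemia inhibitory factor, fell by log2 -3.09 (-4.37 to -1.80). Of the ligand genes 5 of 9 rose in WT and 5 of 6 in the knockout and none fell. Il12b, the p40 subunit of IL-12, had 0 reads untreated and was 63.8-fold higher in WT and 25.9-fold in the knockout, counted from 3 reads. The intervals of its log2 change were 4.75 to 10.42 in WT and 3.45 to 9.14 in the knockout.

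Among inhibitors, 6 of 16 rose and 2 fell in WT and 5 rose and 6 fell in the knockout. Socs3, which blocks JAK activity at the IL-6 receptor, rose by log2 6.98 (5.97 to 7.98) in WT and 6.75 (5.99 to 7.51) in the knockout, and Pias1, an inhibitor of DNA binding by STATs, fell by -1.15 (-1.72 to -0.58) and -0.91 (-1.42 to -0.41). Of 25 targets and partners, 19 rose and 3 fell in both genotypes. Cxcl9, an interferon-induced chemokine, had 0 untreated reads. Counted from 3 reads it was 27.6-fold higher in WT and 60.9-fold in the knockout, with log2 intervals of 3.54 to 9.22 and 4.69 to 10.35. The untreated Inputs differed in depth, and for Cxcl9 and Il12b the untreated reads were too few to compare the rise between genotypes. Mrc1, the mannose receptor raised by IL-4 through Stat6, fell by log2 -2.47 (-3.72 to -1.22) and -3.79 (-5.27 to -2.32).

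In the Input-corrected comparison after LPS, 5 of 18 receptors were higher in WT and 4 lower, 5 of 14 inhibitors higher and 2 lower, 5 of 24 targets higher and 9 lower, and 2 of 4 ligands lower with none higher, beside 17.5% of all genes higher and 24.6% lower. The median was 0.36 for receptors, 0.54 for inhibitors, -0.17 for targets and -0.56 for ligands, beside -0.07 over all genes and -0.01 over the 8 STAT and JAK genes with enough reads. On library totals the medians of all 4 lists were above 0, at 1.56, 1.74, 1.03 and 0.63 in that order beside 1.12 over all genes. There 13 receptors, 12 inhibitors, 14 targets and 2 ligands were higher and 1 inhibitor lower, with 63.9% of all genes higher and 1.66% lower, so the directions of targets and ligands depend on the scaling.

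Profiles over the 8 libraries were compared by the distance between mean-centred log2 levels among the 4092 others that reached 10 reads in all libraries. The nearest gene to Stat3 was Slc31a1, a copper transporter (distance 0.41, against a median of 3.51), to Stat5a Sema4a (0.36, median 2.20), to Stat5b Srebf2 (0.35, median 1.95), to Stat6 Nfix (0.34, median 1.84), to Jak1 Laptm4a (0.34, median 2.10) and to Tyk2 Ist1 (0.38, median 2.39). Jak2 and Jak3 had fewer than 10 reads in some library and were left out. The 8 points of each profile share their library scaling.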

How the data were processed

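RIP and Input RNA of 8 libraries was sequenced as 16 samples, 2 lanes each. Per the labels and the study's methods, the authors aligned reads to mm10 with Bowtie2 2.2.2, removed duplicates and took the number of reads overlapping each 3′-UTR region of Ensembl. The deposited counts are raw and identical in the 4 tables (31117 rows, of which 495 without a symbol, with 0.902% to 1.04% of the summed counts, were left out). The authors' RPKM columns served only to recover library totals, and the deposited region length gave levels per kilobase. Columns of the authors' fold changes, p-values and peak scores were not used. The predicted CPE class was copied as given.

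With 1 library per group there is no test. Log2 ratios were computed from counts with 1 read added per library, scaled to 3′-UTR reads, with normal 95% intervals from the counts. Deduplicated reads without molecular identifiers are not strictly independent molecules. Members and lists were chosen with earlier results of these data known. Named genes are the members, Cpeb4, the nearest profile of each member (not reported here for Stat2) and, per list, the largest rise and fall in WT Input. The rule was run on simulated counts with counting error only, as its intervals assume, which cannot show how it holds across replicates. Changes were planted there only in genes above a read minimum. TMM came from edgeR 4.0.16. Alternatives were library totals, TMM, median-of-ratios factors, 0.1 reads added, the longest region, merged blocks, a log2 limit of 1, at least 50 reads and no read minimum. Sequences came from RefSeq, GRCm38.p6, and TTTTGT was left out of the CPE motifs in the main count.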

Additional observations from a re-analysis of the deposited data

Results flagged for a closer look

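Stat5b was flagged in RIP over Input after LPS, where the log2 ratios of WT and knockout had opposite signs with intervals clear of 0. They were 0.24 in WT, inside the limit of 0.5, and -0.70 in the knockout. The genotypes' intervals lay apart after LPS for most other members as well. Each genotype has 1 library per assay and condition, so the difference was not tested against replicates. On library totals the values were 0.75 and -1.39.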

How the results depend on the processing

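Over 15 comparisons and 9 alternatives, the number of members past the limit stayed within 1.5 times in 121 cases and not in 14, but the numbers higher and lower were both the same in only 91 of 135. With library totals, members higher and lower went from 2 and 2 to 5 and 0 in WT over knockout RIP untreated, from 2 and 4 to 6 and 1 after LPS, from 3 and 2 to 6 and 0 in the Input-corrected comparison after LPS, and from 2 and 4 to 4 and 2 in WT RIP over Input after LPS. With each of the 3 other scalings, the LPS change went from 4 and 1 to 6 and 0 in WT RIP, from 4 and 1 to 5 and 0 in knockout RIP and from 6 and 1 to 7 and 0 in knockout Input. With library totals, the number became 6 (0 higher, 6 lower) for RIP over Input in the untreated knockout, 7 in the knockout after LPS and 4 for the Input-corrected comparison untreated. With library totals, WT over knockout RIP turned positive for Stat2 (0.33) and Stat6 (0.20) untreated and for Stat2 (0.60), Stat6 (0.40) and Tyk2 (0.15) after LPS, and the Input-corrected value of Stat6 after LPS became 0.17. With TMM, 2 members passed the limit in WT over knockout RIP untreated, both higher. With a limit of 1, the number became 4 for the LPS change of knockout Input, 1 each for RIP over Input untreated in WT and in the knockout and for knockout RIP over Input after LPS, 0 for WT over knockout Input after LPS, 1 for WT over knockout RIP untreated and 1 after LPS, 2 for the Input-corrected comparison after LPS, and 3 each for the LPS change of WT RIP and of knockout RIP. The shift of library totals follows from the ratios of 3′-UTR reads to library totals, and the cause of the shift was not tested. Median-of-ratios factors, 0.1 reads added, the longest region, merged blocks and the read minimums kept every total within 1.5 times. Counting TTTTGT as a CPE, chosen after seeing the data, gave 5 members with a CPE in the last 100 bases of the region used instead of 4. Stat3 would join them if its nested region were used.

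No paired analysis was possible because each group holds 1 library. Depth limits Jak2 and Jak3 untreated, with 3 to 10 reads in most libraries, and the untreated knockout RIP.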
